A study of Litchi chinensis with 18 samples.

Results

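Genes for the movement and the first use of sugars were followed across the carpels and stamens of 3 kinds of litchi flower. They were taken from the deposited table by the text of the best Swiss-Prot match, as every locus annotated as a SWEET sugar transporter, a sucrose transport protein, a sugar transport protein, a polyol transporter, an invertase or beta-fructofuranosidase, a sucrose synthase or a hexokinase. The rule found 111 gene models at 103 of the 34024 loci. By class they were 28 SWEET genes, 8 sucrose transporters, 17 hexose transporters (sugar transport proteins, STP), 8 polyol transporters, 11 cell wall invertases, 3 vacuolar invertases, 10 neutral/alkaline invertases, 6 putative invertase inhibitors, 7 sucrose synthases and 5 hexokinases. The annotation named an Arabidopsis protein for 78 of them, so the gene names below are those of the closest protein and not proof of the same function in litchi.

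Flowers of the cultivar 'Feizixiao' were collected at full bloom from orchard trees, and carpels and stamens were detached and sequenced as separate RNA samples. F flowers were functionally female with rudimentary stamens, M flowers were functionally male with rudimentary pistils that were not obvious, and m flowers were functionally male with obvious rudimentary pistils. Each of the 6 organs (F-carpel, M-carpel, m-carpel, F-stamen, M-stamen and m-stamen) was measured in 3 libraries. Nothing in the sample labels says that the 3 libraries of an organ came from separate trees, so p-values here measure the spread between these libraries, which may be technical. The paper reports triplicate sampling from parts of the tree that faced each compass direction, without linking libraries to trees. In bulk organs, fewer cells of a type and less RNA per cell cannot be told apart.

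Sucrose is the main sugar that plants carry in the phloem, and it reaches organs that cannot feed themselves by passing out of the phloem and into their cells. SWEET proteins let sugars pass down their gradient, whereas sucrose transporters (SUC) and sugar transport proteins take up sucrose and hexoses together with protons. Inside or outside the cell, sucrose is split by invertases into glucose and fructose, or by sucrose synthase into fructose and UDP-glucose, and hexokinase then phosphorylates the hexoses. In anthers, cell wall invertase and hexose transporters are known for feeding the developing pollen.

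The libraries held 25689398 to 32302522 counts (median 29945742), and a total of 3 counts, used as the detection floor, stood for 0.0929 to 0.117 CPM (counts scaled to a common library size). The 103 loci took 0.438% to 1.35% of the counts of a library. No count was recorded for 17 of them in any library, 9 of these annotated as SWEET genes, and 14 more had under 100 counts over all 18 libraries. The remaining filter on low counts left 73 loci for testing, among 24666 loci in all. Levels are given as FPKM (fragments scaled by model length and by library depth), which allows genes of different length to be compared. A difference was called where edgeR's quasi-likelihood test gave an adjusted p below 0.01, over all 24666 loci, and the log2 fold change was at least 1 in size. Scaling by trimmed means (TMM) in place of library totals shifted the log2 fold changes of all loci alike. The shift was about 0.15 in stamens against carpels and about −0.36 in F-stamen against m-stamen.

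Organ labels were checked against marker genes. LcPI (LITCHI011302), a B-class floral gene for petals and stamens, stood at 409, 643 and 374 FPKM in the F-, M- and m-stamens, against 2.61, 76.7 and 4.01 FPKM in the carpels of the same flowers. The M-carpel thus held 11.9% of the LcPI level of its stamen, compared with 0.637% in F and 1.07% in m flowers. The other B-class gene, LcAP3-1 (LITCHI006530), did not set the M-carpel apart, with 36.0% in F, 20.1% in M and 17.5% in m flowers. The 3 carpel identity loci did not follow the organ labels together. LcSTK (LITCHI011705), an ovule identity gene, stood at 32.9 FPKM in F-carpel, 7.85 in m-carpel, with 1.12 in M-carpel, and below 1 FPKM in the 3 kinds of stamen. LcSHP (LITCHI026995) was highest in F-carpel (26.2 FPKM) but lower in M-carpel (7.83) than in M-stamen (16.5). A CRABS CLAW match (LITCHI005346) was higher in M- and m-stamens (56.2 and 25.2 FPKM) than in the carpels of those flowers (31.2 and 1.37 FPKM), and the 3 loci summed to 73.0 FPKM in M-stamen and to 40.1 FPKM in M-carpel. The summed level of 15 pollen and anther marker loci was 1518 to 3464 FPKM in stamen libraries and 129 to 394 FPKM in carpel libraries, with none of the loci at 0 throughout. It was highest in m-stamen (3423 FPKM) and lowest among stamens in M-stamen (1604 FPKM), and F-stamen held 2716 FPKM. Not every locus followed the sum, as the pollen-specific protein C13 (LITCHI010442) stood at 317 FPKM in F-carpel and 165 in F-stamen. Among carpels, the LAT52 matches LITCHI013059 and LITCHI012895 were highest in M-carpel (34.7 and 16.9 FPKM). They stood at 12.9 and 8.45 FPKM in m-carpel and at 6.30 and 3.71 in F-carpel. Another LAT52 match (LITCHI008126) did not have this order, with 8.85 FPKM in M-carpel, 9.26 in m-carpel and 10.9 in F-carpel. All 19 green tissue loci had reads, and their sum ranged from 139 to 146 FPKM in M-carpel, against 840 to 956 in F-carpel and 708 to 748 in m-carpel.

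**Figure D1:**
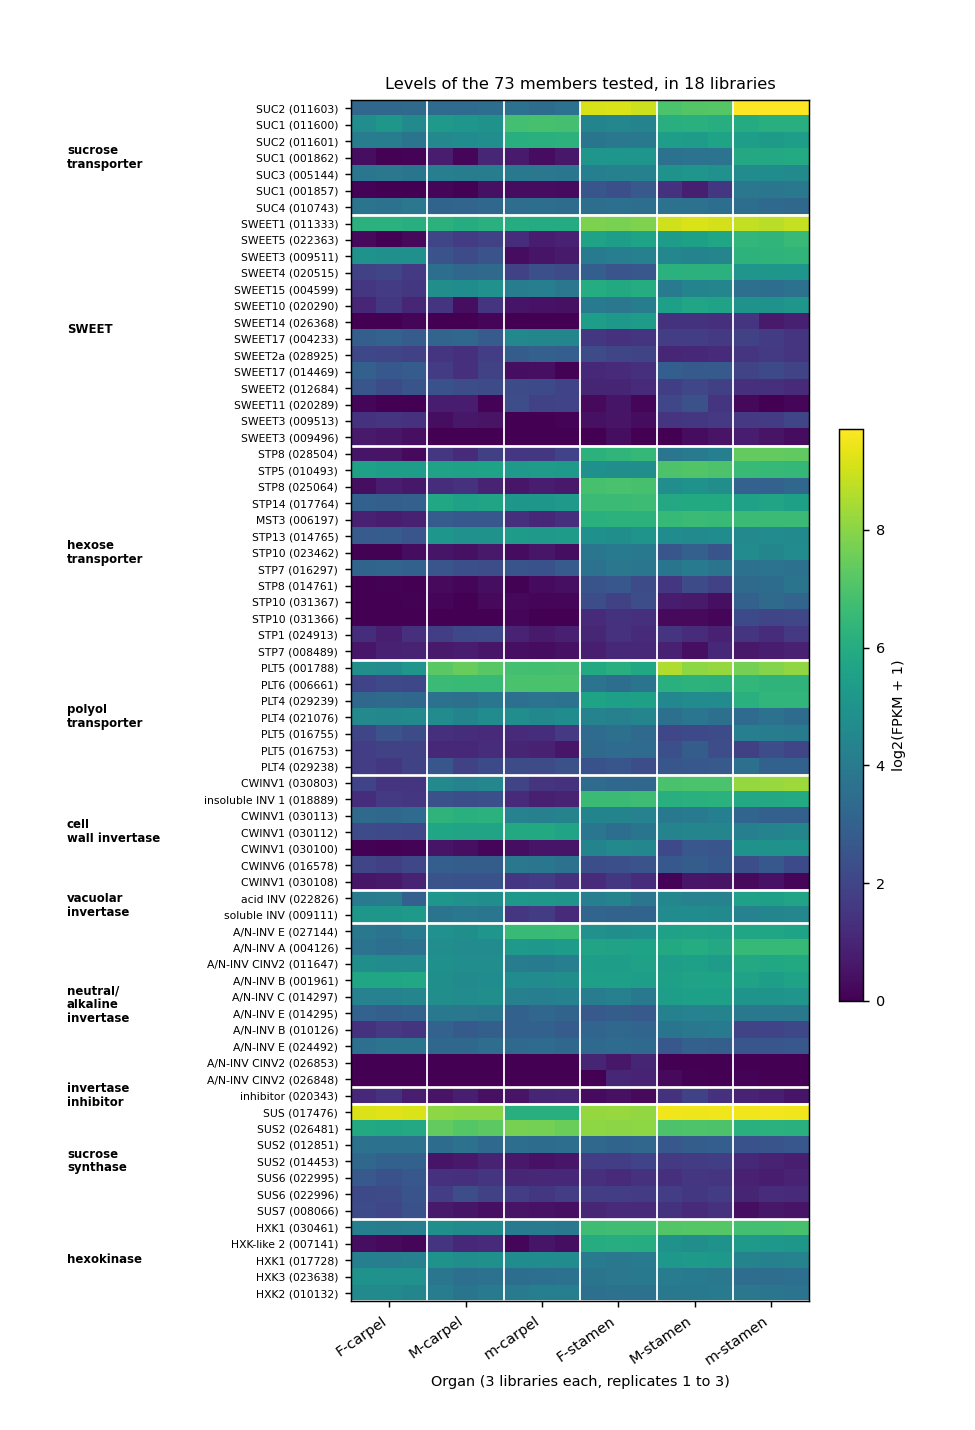
Levels of the 73 tested sugar loci (rows, grouped by class) in the 18 libraries (columns, grouped by organ), as log2(FPKM + 1). The 3 libraries of an organ look alike, and many rows of SWEET, STP and invertase genes are brighter (higher) in the stamens.

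The genes together stood at a higher level in stamens than in carpels of each flower type. Their summed level was 1331 ± 29.3 FPKM in F-carpel, 1537 ± 53.8 in M-carpel, with 1430 ± 12.8 in m-carpel (SD, n = 3), and 2860 ± 22.9 in F-stamen, 3543 ± 13.9 in M-stamen, with 4463 ± 67.6 in m-stamen. The libraries of stamens and carpels did not overlap. The leading classes behind these sums differed between organs. By mean, sucrose synthases led in all 3 carpels, with 687 ± 24.3 FPKM in F, 425 ± 18.1 in M and 282 ± 13.2 in m flowers. In m-carpel their libraries (267 to 293 FPKM) overlapped those of the polyol transporters (270 to 279 FPKM). Sucrose transporters led in m-stamen with 1047 ± 5.70 FPKM and in F-stamen with 645 ± 31.4 FPKM. In M-stamen the sucrose transporters stood at 300 ± 10.5 FPKM, below the sucrose synthases (865 ± 7.97 FPKM) and the SWEET genes (770 ± 34.5 FPKM).

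**Figure D2:**
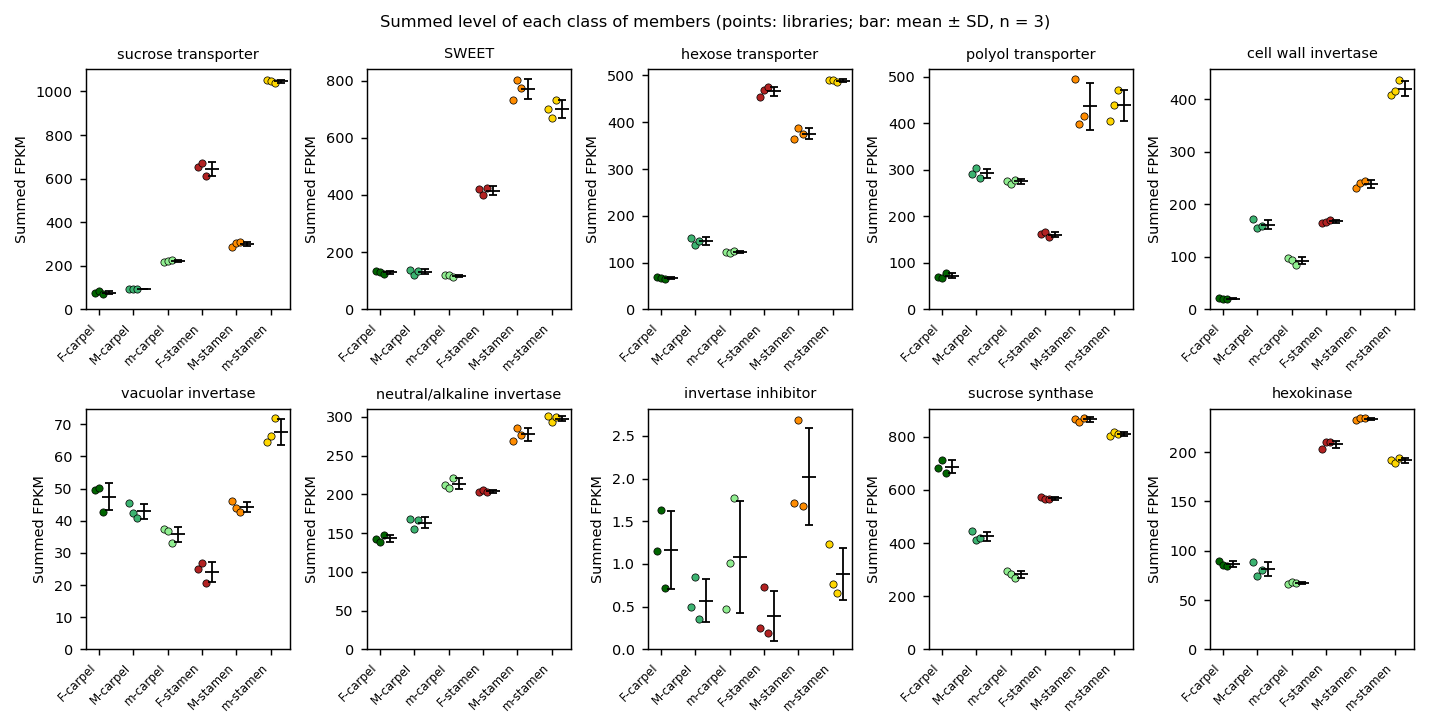
Summed FPKM of each class of sugar genes (one panel per class) in the 6 organs; points are libraries, and dashes with error bars are means with SD over 3 libraries. Sucrose transporters reach 1047 FPKM in m-stamen and 645 in F-stamen against 300 in M-stamen, while sucrose synthases stand at 687 FPKM in F-carpel against 282 in m-carpel.

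The first comparison asked how stamens differed from carpels over the 3 flower types. Of the 73 loci, 34 were called higher in stamens and 3 higher in carpels, together 37 (50.7%), where 32.2% of all loci were called, 20.0% higher in stamens and 12.2% higher in carpels. The median log2 fold change was 0.98 over the 73 loci and 0.01 over all loci. Hexose transporters gave 9 of 13 tested loci called higher in stamens and none lower, with a median of 5.43. SWEET genes gave 9 higher and 2 lower of 14. Of the other classes, 4 of 7 polyol transporters, 3 of 7 sucrose transporters, 3 of 10 neutral/alkaline invertases, 2 of 5 hexokinases and 1 of 7 sucrose synthases were higher in stamens, and none of these classes had a locus called higher in carpels. Cell wall invertases gave 3 higher and 1 lower of 7, and neither of the 2 tested vacuolar invertases was called. The share of sucrose synthases called (14.3%) was below the 20.0% of all loci called higher in stamens. This comparison averages over flower types that can differ in direction. Within F flowers, 3 of 7 sucrose synthases and 1 of 5 hexokinases were called higher in carpel. Within m flowers, 1 sucrose synthase and 1 polyol transporter were.

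Within F flowers, where the stamens are rudimentary, 36 loci were called higher in stamen and 10 higher in carpel, together 63.0% of the 73 against 37.0% of all loci (21.4% and 15.6%). Within M flowers the counts were 37 and 5 (57.5% against 26.7%, of which 15.7% and 11%). Within m flowers they were 42 and 9 (69.9% against 41.3%, of which 23.6% and 17.7%). In each of the 3 flower types the same 25 loci were called higher in stamens, a pattern shown by 8.11% of all loci. They comprised 7 hexose transporters, 5 SWEET genes, 4 polyol transporters, 3 sucrose transporters, 3 cell wall invertases, 2 hexokinases and 1 neutral/alkaline invertase. Only SWEET17 (LITCHI004233) was called higher in carpels in all 3 flower types, where 2.15% of all loci were. For 11 loci the call was in opposite directions in at least 2 flower types, as for 7.82% of all loci.

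The M-carpel held a larger percentage of the stamen level of these genes than the other carpels. Over the 23 of the 25 loci with least 1 FPKM in M-stamen, the level in carpel as a percentage of that in stamen had a median of 8.54% in M flowers, 1.59% in F flowers and 1.66% in m flowers. In M flowers it ranged from 2.68% to 50.0%, and it was the highest of the 3 flower types at 17 of the 23 loci. LcPI stood at 11.9% and LcAP3-1 at 20.1% in the same measure, and the part of stamen RNA in the M-carpel values was not tested.

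Among the sucrose transporters, SUC2 (LITCHI011603), named for the Arabidopsis proton symporter of phloem loading, was the most abundant in every stamen. It was at 556, 569 and 508 FPKM in F-stamen, at 124, 138 and 140 in M-stamen, with 839, 836 and 826 in m-stamen. All 9 carpel libraries lay between 8.24 and 11.8 FPKM, so no stamen library came near a carpel library, and the 3 kinds of stamen did not overlap. The log2 difference of stamen from carpel was 6.10 ± 0.09 in F (SE, adjusted p = 2.71e-19), 3.83 ± 0.08 in M (adjusted p = 9.06e-17) and 6.48 ± 0.09 in m flowers (adjusted p = 1.55e-19). Between stamens, m exceeded M by 2.89 ± 0.07 and F exceeded M by 1.91 ± 0.07, both called, while F stood below m by a difference of −0.98 ± 0.07 that missed the fold threshold.

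A pair of SUC1 loci followed SUC2 at lower levels. The protein SUC1 of Arabidopsis is a sucrose symporter known from pollen. LITCHI001862 stood at 57.9, 57.7 and 59.6 FPKM in m-stamen, 32.7, 33.8 and 33.8 in F-stamen, and 11.4, 12 and 11.9 in M-stamen. The groups of stamens did not overlap, and the 9 carpel libraries reached 1.08 FPKM at most. LITCHI001857 reached 13.4 ± 0.267 FPKM in m-stamen, 4.93 ± 0.735 in F-stamen and 1.45 ± 0.624 in M-stamen, with 0 to 0.354 FPKM in carpels. For LITCHI001857 the lead of F-stamen over M-stamen (log2 difference 1.64 ± 0.39) was no longer called without F-stamen replicate 3 (1.42) or without M-stamen replicate 2 (1.33).

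Neighbouring loci of the same annotation behaved otherwise. SUC1 (LITCHI011600) was at 112, 118 and 115 FPKM in m-carpel, against 26, 34.5 and 24.4 in F-carpel and 36.4, 33.2 and 31.0 in M-carpel. The m-carpel libraries lay above all other libraries of this gene, the highest of which was 70.1 FPKM in M-stamen. SUC2 (LITCHI011601) showed the same order, with 71.4 ± 3.03 FPKM in m-carpel, 25 ± 1.77 in M-carpel, with 14.6 ± 2.08 in F-carpel. Both were called higher in m-carpel than in F-carpel, by log2 differences of 2.26 and 2.53 in size, and than in M-carpel, by 1.83 and 1.56. Since these loci and LITCHI011603 have close identifiers and like annotations, reads may have been shared between them, and the level of each is uncertain to that extent.

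The SWEET genes were led by SWEET1 (LITCHI011333), which in Arabidopsis is a plasma membrane glucose carrier. It stood at 520, 570 and 546 FPKM in M-stamen, 448, 421 and 466 in m-stamen, with 224, 217 and 227 in F-stamen. Carpel libraries ranged from 61.8 to 74.5 FPKM and overlapped between flower types. The difference of stamen from carpel was 1.76 ± 0.04 in F, 3.02 ± 0.05 in M and 3.07 ± 0.05 in m flowers on the log2 scale, and F-stamen was called lower than M-stamen (−1.40 ± 0.04) and m-stamen (−1.36 ± 0.04). With limma on FPKM the difference of F-stamen from m-stamen was −0.99, just short of the fold threshold. The difference between M- and m-stamen, 0.04 ± 0.04, was not called.

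SWEET4 (LITCHI020515), a hexose carrier in Arabidopsis, also stood high in the functional stamens. The libraries gave 73.6, 75.5 and 71.9 FPKM in M-stamen, 32.4, 34.6 and 33.3 in m-stamen, with 6.38, 4.91 and 5.18 in F-stamen. The F-stamen values lay below the M-carpel values (8.34 to 10.3 FPKM) and above those of the other carpels (2.13 to 4.19). M-stamen exceeded F-stamen by 3.92 ± 0.14 and m-stamen exceeded it by 3.05 ± 0.13 (log2, both called). Within F flowers its difference of stamen from carpel, 1.02 ± 0.14, was called only narrowly, and was 0.86 to 0.93, not called, without F-carpel replicate 3, F-stamen replicate 1 or 3, M-carpel replicate 3, m-carpel replicate 3 or m-stamen replicate 2 or 3. SWEET10 (LITCHI020290), of the group whose Arabidopsis members carry sucrose, had the same order with 47.4 ± 4.11, 31.3 ± 1.76 and 14.7 ± 1.15 FPKM in M-, m- and F-stamens, and 0.293 to 1.97 FPKM in carpels.

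SWEET5 (LITCHI022363), whose Arabidopsis namesake is expressed in the vegetative cell of pollen, stood mainly in stamens. Its level was 84.7, 81.0 and 92.2 FPKM in m-stamen, 47.0, 41.9 and 48.7 in F-stamen and 40.6, 45.2 and 51.3 in M-stamen. The F- and M-stamen libraries overlapped and m-stamen lay above both, called by log2 differences of 1.27 and 1.16 in size. In carpels it was 2.67 ± 0.425 FPKM in M, 0.960 ± 0.326 in m and 0.110 ± 0.0956 in F flowers. M-carpel was called above m-carpel by 1.40 ± 0.23, and F-carpel below M-carpel by a difference of −4.69 ± 0.34, on the log2 scale, beside the LcPI level of the M-carpel given above.

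Another pair of SWEET genes peaked in the rudimentary stamens of F flowers. SWEET14 (LITCHI026368), named for a rice sucrose carrier, had 42.0, 35.4 and 40.8 FPKM in F-stamen, 1.65, 1.67 and 1.46 in M-stamen, with 1.79, 0.617 and 0.793 in m-stamen. F-stamen exceeded M-stamen by 4.50 ± 0.43 (adjusted p = 2.97e-07) and m-stamen by 4.83 ± 0.44 (adjusted p = 1.38e-07) on the log2 scale. All 3 m-carpel libraries were at 0 counts, so the level in F-stamen (53.5 CPM) was at least 1591-fold higher, against a floor of 3 counts over the organ. SWEET15 (LITCHI004599), a sucrose carrier known in Arabidopsis from seeds and senescing leaves, had 63.4, 59.0 and 62.9 FPKM in F-stamen, against 15.6 to 20.5 in M-stamen and 10.3 to 11.7 in m-stamen. In carpels it stood at 27.3 ± 1.83 FPKM in M and 15.5 ± 1.75 in m flowers but at 2.08 ± 0.198 in F flowers. Hence the stamen lay above the carpel in F flowers by 5.01 ± 0.12, called, while the differences in M (−0.51 ± 0.10) and m flowers (−0.25 ± 0.10) were not called.

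SWEET3 (LITCHI009511) had its highest level in m-stamen and its lowest in m-carpel. The libraries gave 77.4, 78.1 and 80.5 FPKM in m-stamen, 0.243, 0.475 and 0.614 in m-carpel, and 28.7 ± 1.09 in F-carpel. In m flowers the log2 difference of stamen from carpel was 7.70 ± 0.16 and in M flowers 2.28 ± 0.12, both called, whereas in F flowers it was −0.67 ± 0.11 and not called. The neighbouring SWEET3 (LITCHI009513), with which reads may have been shared, was called lower in stamen in F flowers (−2.14 ± 0.42) and higher in M (2.2 ± 0.41) and m flowers (6.81 ± 0.58), at levels up to 3.06 FPKM.

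The vacuolar sugar carriers SWEET17 and SWEET2 of Arabidopsis had matches at low level. SWEET17 (LITCHI004233) was at 21.9, 20.7 and 21.0 FPKM in m-carpel, 5.84 to 8.72 in M- and F-carpels, which overlapped, and 1.64 to 2.74 in all 9 stamen libraries. The difference of stamen from carpel was −1.79 ± 0.17 in F, −1.66 ± 0.17 in M and −2.98 ± 0.17 in m flowers. A second SWEET17 (LITCHI014469) was called lower in stamen in F flowers (−2.07 ± 0.29) and higher in M (1.49 ± 0.29) and m flowers (4.02 ± 0.35), with 6.12 ± 0.671 FPKM in F-carpel and 0.222 ± 0.151 in m-carpel. SWEET2a (LITCHI028925), named after a sorghum gene, was at 6.34, 6.82 and 6.54 FPKM in m-carpel and at 1.09 to 3.78 FPKM elsewhere. The match to SWEET2 of Arabidopsis (LITCHI012684), chosen after its values were seen, had another profile. Its mean was highest in F-carpel (4.49 FPKM), then M-carpel (4.06), and lowest in F-stamen (1.11). SWEET11 (LITCHI020289), a sucrose carrier of phloem in Arabidopsis, reached 3.21 ± 0.582 FPKM in m-carpel and 3.11 ± 1.24 in M-stamen and at most 0.733 FPKM in any library of the other organs.

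**Figure D3:**
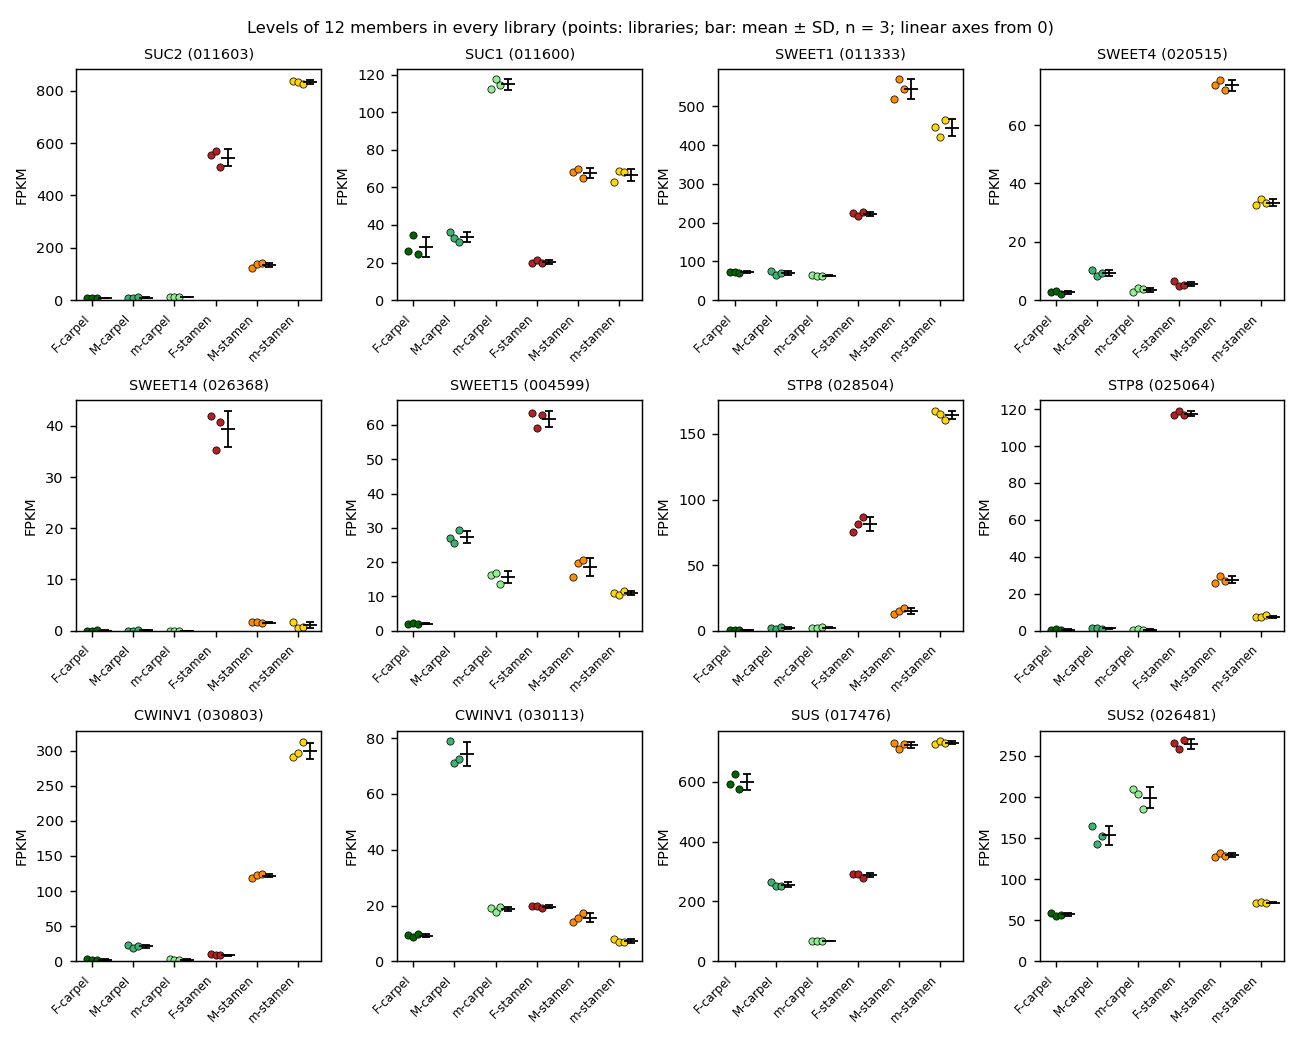
FPKM of 12 sugar genes in the 6 organs, with a point for each library and a dash with error bar for the mean and SD of 3 libraries. SUC2 (LITCHI011603) reaches 834 FPKM in m-stamen, SWEET14 and SWEET15 peak in F-stamen at 39.4 and 61.8 FPKM, and CWINV1 (LITCHI030113) peaks in M-carpel at 74.2 FPKM.

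The hexose transporters take up glucose and other hexoses with protons across the plasma membrane, and 7 of them were called higher in stamen in all 3 flower types. STP8 (LITCHI028504) was at 167, 165 and 161 FPKM in m-stamen, 75.6, 81.5 and 87.0 in F-stamen and 13.0, 15.4 and 17.5 in M-stamen. The groups did not overlap, and carpels ranged from 0.193 to 2.83 FPKM. Another STP8 (LITCHI025064) had a different order, with 117, 119 and 117 FPKM in F-stamen, 25.9, 29.8 and 27.1 in M-stamen, with 7.34, 7.31 and 8.29 in m-stamen. F-stamen exceeded m-stamen by 3.58 ± 0.15 for LITCHI025064 (log2, adjusted p = 1.35e-12) and stood below it by a difference of −1.38 ± 0.16 for LITCHI028504 (adjusted p = 1.22e-06).

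The most abundant hexose transporters of M-stamen among the genes described were STP5 and MST3. STP5 (LITCHI010493) stood at 129, 135 and 129 FPKM in M-stamen and 92.1, 89.4 and 88.0 in m-stamen, against 28.3, 27.0 and 26.5 in F-stamen. In F-stamen it lay below all carpel libraries (36.0 to 48.9 FPKM), with a difference of −0.54 ± 0.05 from F-carpel that missed the fold threshold, while the stamen was called higher by 1.5 ± 0.05 in both M and m flowers. MST3 (LITCHI006197), named after a rice gene and chosen after its values were seen, was at 73.0 ± 1.92, 93.4 ± 3.91 and 97.3 ± 0.374 FPKM in F-, M- and m-stamens and at 0.791 ± 0.0876, 5.57 ± 0.445 and 1.39 ± 0.20 FPKM in the carpels of the same flowers.

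STP10 is a hexose symporter of the pollen tube in Arabidopsis, and its 3 tested matches had like profiles. LITCHI023462 was at 24.9, 21.1 and 25 FPKM in m-stamen, 12.9, 14.8 and 14.2 in F-stamen and 4.98, 6.95 and 4.79 in M-stamen, with most 0.602 FPKM in carpels. The neighbours LITCHI031366 and LITCHI031367 reached 3.29 ± 0.242 and 8.08 ± 1.22 FPKM in m-stamen and 1.49 ± 0.195 and 3.53 ± 0.658 FPKM in F-stamen. In M-stamen these stood at 0.146 ± 0.0540 and 0.557 ± 0.221 FPKM. LITCHI031366 had no counts in F-carpel or M-carpel, so that its level in m-stamen was at least 200-fold and at least 171-fold higher. A further STP8 (LITCHI014761) had 10.4 ± 1.61, 4.59 ± 0.723 and 2.75 ± 0.880 FPKM in m-, F- and M-stamens and at most 0.317 FPKM in carpels.

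Polyol transporters, proton symporters of sugar alcohols and hexoses, had lower summed levels in F flowers, with 71.8 ± 5.29 FPKM in F-carpel and 161 ± 5.52 in F-stamen, than in M and m flowers, with 275 to 292 FPKM in carpels and 436 to 438 in stamens. PLT6 (LITCHI006661) was at 2.87, 3.44 and 3.34 FPKM in F-carpel, and F-stamen had 12, 10.4 and 12.3, against 91.4 to 98.3 in M-carpel, 121 to 122 in m-carpel and 71.3 to 85.6 in the stamens of M and m flowers. F-carpel was called lower than M-carpel by a log2 difference of −5.07 ± 0.08 and lower than m-carpel by −5.48 ± 0.08. F-stamen was called lower than M-stamen (−2.80 ± 0.07) and m-stamen (−3.17 ± 0.07). The difference of stamen from carpel was called in F flowers only (1.97 ± 0.07), and was −0.30 ± 0.06 in M and −0.33 ± 0.06 in m flowers.

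PLT5 (LITCHI001788), the most abundant of the class, stood at 28.0 ± 3.98 FPKM in F-carpel, 156 ± 16.3 in M-carpel, with 111 ± 2.56 in m-carpel. In the stamens it was at 60.6 ± 7.15, 313 ± 57.1 and 240 ± 33.9 FPKM for F, M and m, so that stamen was called above carpel in each flower type by 1.12 to 1.24 on the log2 scale. The counts of this locus are the sum of several models, of which one held 36.4% to 90.4% of the locus in 3 libraries of m-stamen, M-stamen and M-carpel, and none in the rest. With each model tested on its own, the differences of stamen from carpel (1.24, 1.42 and 0.84 in F, M and m flowers) were not called. PLT4 (LITCHI029239) had 71.6, 82.7 and 83.4 FPKM in m-stamen, 48.4, 43.6 and 45.5 in F-stamen and 22.3, 24.6 and 24.9 in M-stamen, above 8.68 to 12.9 FPKM in carpels. A second PLT5 (LITCHI016755) was at 16.0 ± 0.640 FPKM in m-stamen, 9.79 ± 1.02 in F-stamen and 3.43 ± 0.260 in M-stamen.

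Cell wall invertases split sucrose outside the cell. Their sum was lowest in F-carpel, at 20.3 ± 0.917 FPKM, and was 162 ± 8.64 in M-carpel, with 92.6 ± 6.62 in m-carpel. In stamens it was 168 ± 2.78 FPKM in F, 239 ± 7.04 in M and 420 ± 14.6 in m flowers. All 7 tested loci were called higher in M-carpel than in F-carpel and 5 of 7 higher in m-carpel than in F-carpel, where 16.4% and 17.7% of all loci were.

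In M and m flowers the class divided into loci called higher in stamen (3 in each) and loci called higher in carpel (3 and 4). In F flowers 5 of 7 were called higher in stamen and 0 higher in carpel. CWINV1 (LITCHI030803) was at 291, 296 and 313 FPKM in m-stamen, 119, 122 and 124 in M-stamen, with 9.73, 8.71 and 8.38 in F-stamen. M-carpel, at 22.8, 19.0 and 21.6 FPKM, lay above F-stamen, and the other carpels were at 1.71 to 3.01. F-stamen was called lower than M-stamen by −3.88 ± 0.16 and than m-stamen by −5.43 ± 0.17 (log2, adjusted p = 1.94e-12 and 4.4e-14). The insoluble isoenzyme 1 (LITCHI018889), named after a carrot enzyme, was instead at 97.7, 98.7 and 103 FPKM in F-stamen, 69.6, 70.2 and 72.6 in M-stamen, with 57.3, 57.5 and 60.5 in m-stamen. These groups did not overlap, yet their differences, 0.38 ± 0.09 and 0.41 ± 0.09 for F against M and m, were below the fold threshold, and carpels were at 0.798 to 4.26 FPKM.

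CWINV1 (LITCHI030113) had its highest level in M-carpel, with 79.1, 71.0 and 72.4 FPKM. All other libraries lay between 6.80 and 20.0 FPKM, those of m-carpel at 17.8 to 19.4 and those of F-carpel at 8.79 to 9.62. M-carpel was called above m-carpel by 1.93 ± 0.07 (adjusted p = 5.76e-13). F-carpel was below it by a difference of −3.19 ± 0.08 (adjusted p = 3.5e-16), and M-stamen was below M-carpel by −2.2 ± 0.07 (adjusted p = 4.93e-14). M-stamen held 15.7 ± 1.63 FPKM of it, less than M-carpel. In F flowers the stamen was instead called above the carpel for LITCHI030113, by 1.21 on the log2 scale. CWINV1 (LITCHI030108) was low and highest in M-carpel too, at 4.61, 4.49 and 4.40 FPKM. A further CWINV1 (LITCHI030112), chosen after its values were seen, stood at 55.6 FPKM in m-carpel, 50.9 in M-carpel and 3.45 in F-carpel. For LITCHI030112 the stamen was called lower in M (−1.30) and m flowers (−1.27) and higher in F flowers (1.93). These loci have close identifiers, so shared reads make their levels uncertain. CWINV6 (LITCHI016578), which in Arabidopsis is a fructan exohydrolase, was at 13.8, 13.2 and 11.6 FPKM in m-carpel and 2.61 to 6.47 FPKM in all other libraries.

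Vacuolar and neutral invertases split sucrose inside the cell. The soluble isoenzyme I (LITCHI009111), a vacuolar form named after carrot, stood at 34.4, 34.5 and 35.7 FPKM in F-carpel, 12.3, 13.8 and 13.0 in M-carpel, with 1.88, 2.26 and 1.32 in m-carpel. The carpels did not overlap, and F exceeded m by 3.90 ± 0.13 and M by 1.21 ± 0.11 on the log2 scale, both called. The stamens had another order, with 24.5 ± 0.608 FPKM in M, 20.5 ± 1.55 in m and 7.70 ± 0.236 in F flowers. The stamen was called lower than the carpel in F flowers (−2.02 ± 0.11) and higher in m flowers (3.62 ± 0.13). The acid invertase (LITCHI022826) was instead highest in m-stamen (45.5 to 50.3 FPKM), and its F-carpel libraries were uneven, at 15.1, 15.7 and 6.93 FPKM. The counts of this locus are the sum of 2 models, whose shares varied between libraries. One model held 3.01% to 100% of them in F-carpel and 22.2% to 100% in F-stamen. The effect of this on the summed FPKM was not tested.

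The summed level of the neutral/alkaline invertases ranged from 143 ± 4.45 FPKM in F-carpel to 298 ± 3.76 in m-stamen. Invertase A (LITCHI004126), annotated as mitochondrial, stood at 11.3 ± 0.526, 25.3 ± 0.996 and 37.8 ± 2.83 FPKM in F-, M- and m-carpels, and at 48.7 ± 1.09, 59.9 ± 3.22 and 90.1 ± 0.579 FPKM in the stamens of the same flowers, called higher in stamen in all 3. Invertase E (LITCHI027144), annotated as chloroplastic, was at 91.5, 92.1 and 96.4 FPKM in m-carpel, 27.7 to 32.4 in M-carpel and 11.9 to 15.3 in F-carpel. The differences of m-carpel from the others were 1.68 and 3.13 in size, both called. CINV2 (LITCHI011647), a cytosolic form in Arabidopsis, lay at 56.7 ± 1.66 FPKM in m-stamen, 43.5 ± 2.18 in F-stamen and 41.9 ± 2.02 in M-stamen, and at 16.1 ± 0.896 in m-carpel. The F- and M-carpels held 59.4% and 64.8% of the level of their stamens. Its log2 differences of stamen from carpel in F (0.87) and M flowers (0.67) were not called. Invertase B (LITCHI010126) stood at 13.8 ± 1.04 FPKM in M-stamen and 3.04 ± 0.240 in m-stamen, a called difference of 1.92 ± 0.11. A second CINV2 (LITCHI026853) had 205 counts, all of them in the 3 F-stamen libraries (0.989, 0.556 and 1.02 FPKM), at least 60.3-fold to 70.8-fold above the floors of the other organs.

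Invertase inhibitors were scarcely detected. Only 1 of the 6 loci passed the filter on low counts, and LITCHI020343, named after a plane tree protein, reached 1.99 ± 0.602 FPKM in M-stamen, against 0.263 ± 0.0850 in F-stamen. It was called lower in stamen in F flowers (−1.96 ± 0.47) and higher in M flowers (1.94 ± 0.45). LITCHI013632 and LITCHI013634 had 14 and 12 counts over the 18 libraries.

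Sucrose synthase had the highest mean sum of the classes in each carpel, with overlap with the polyol transporters in m-carpel. Its highest carpel sum was that of F-carpel. The most abundant locus of all 103 in that organ, sucrose synthase LITCHI017476 (named after a soybean enzyme), was at 592, 626 and 575 FPKM in F-carpel, 265, 250 and 251 in M-carpel, with 68.3, 68.0 and 67.6 in m-carpel. The carpels did not overlap, and F-carpel was called above m-carpel by 2.90 ± 0.04 and M-carpel above m-carpel by 1.86 ± 0.04 on the log2 scale. The lead of F-carpel over M-carpel was 1.04 ± 0.04 and fell to 0.99, short of the threshold, without F-carpel replicate 2. In stamens the order turned, with 728, 711 and 727 FPKM in M, 726, 737 and 729 in m and 292, 293 and 280 in F flowers. The difference of stamen from carpel was accordingly −0.93 ± 0.04 in F flowers, not called, and 1.55 ± 0.04 in M and 3.67 ± 0.05 in m flowers, both called.

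Sucrose synthase 2 (LITCHI026481), named after pea, ran the other way. It stood at 58.8, 55.7 and 56.5 FPKM in F-carpel, 165, 142 and 152 in M-carpel, with 210, 203 and 185 in m-carpel. In stamens it was at 266, 258 and 269 FPKM in F, 128, 132 and 129 in M and 70.6, 72.4 and 70.9 in m flowers, with no overlap between kinds of stamen. The stamen was called higher than the carpel in F flowers (2.34 ± 0.04) and lower in m flowers (−1.23 ± 0.04), with −0.20 ± 0.04 in M flowers.

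Low-level sucrose synthases were highest in F-carpel. Sucrose synthase 2 (LITCHI014453) had 8.36, 7.13 and 7.08 FPKM there and 0.389 to 2.86 elsewhere. Sucrose synthase 7 (LITCHI008066), named after rice, had 3.61, 3.15 and 4.26 FPKM there and 0.276 to 1.69 elsewhere. Sucrose synthase 6 (LITCHI022995), known in Arabidopsis from phloem sieve elements, had 5.57, 4.50 and 5.27 FPKM there and 0.674 to 1.88 elsewhere. In each of these genes the F-carpel libraries lay above all others and were called above each of the other 5 organs, by log2 differences of 2.78, 3.29 and 1.44 from M-carpel for LITCHI008066, LITCHI014453 and LITCHI022995. A further sucrose synthase 2 (LITCHI012851) was at 9.03 to 11.8 FPKM in carpels and 4.44 to 8.46 in stamens, without a call in any of the comparisons.

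The balance of sucrose-splitting enzymes can be read from the same values. Sucrose synthase made up 76.5 ± 0.771% of the summed FPKM of sucrose synthases and invertases in F-carpel, and M-carpel and m-carpel had 53.6 ± 0.231% and 45.1 ± 0.989%. In stamens it made up 59.0 ± 0.320%, 60.7 ± 0.696% and 50.8 ± 0.675% in F, M and m flowers. Cell wall invertase held 2.27 ± 0.148% in F-carpel, 20.4 ± 0.229% and 14.8 ± 0.697% in the M- and m-carpels, and 17.4 ± 0.369%, 16.8 ± 0.378% and 26.3 ± 0.594% in the stamens. The libraries of F-carpel overlapped with those of no other organ in either share. These are shares of transcript level, not of enzyme activity.

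Hexokinases phosphorylate the hexoses, and Hexokinase-1 is also a glucose sensor in Arabidopsis. Hexokinase-1 (LITCHI030461), named after tobacco, was at 105 ± 2.51, 140 ± 2.0 and 114 ± 3.08 FPKM in F-, M- and m-stamens and at 16.5 ± 0.716, 25.3 ± 2.10 and 14.6 ± 0.712 in the carpels, called higher in stamen in all 3 flower types by 2.52 to 3.21 on the log2 scale. The hexokinase-like 2 locus (LITCHI007141), whose Arabidopsis counterpart lacks catalytic activity, was at 63.4, 66.2 and 62.9 FPKM in F-stamen, 30.1, 26.5 and 29.7 in M-stamen, with 36.6, 35.5 and 34.6 in m-stamen. Carpels were at 0.0885 to 1.84 FPKM, the highest in M-carpel. The spinach-like Hexokinase-1 (LITCHI017728) varied only between 13.9 and 37.6 FPKM over the 18 libraries, and F-stamen was called lower than M-stamen by −1.42 ± 0.04.

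The next comparisons asked how the carpel of F flowers differed from the rudimentary carpels. Against M-carpel, 10 loci were called higher in F-carpel and 29 higher in M-carpel, together 53.4% of 73 against 32.7% of all loci (16.3% higher in F-carpel and 16.4% higher in M-carpel). Against m-carpel, 12 were higher in F-carpel and 28 in m-carpel (54.8% against 38.3%, of which 20.6% and 17.7%). Sucrose synthases made up 4 of the loci higher in F-carpel in both comparisons. Cell wall invertases (7 and 5 loci) and hexose transporters (8 and 7 loci) were called only on the side of the M- and m-carpels. LcPI stood at 11.9%, 1.07% and 0.637% of its stamen level in the M-, m- and F-carpels. LcAP3-1 (20.1% in M and 17.5% in m flowers) did not separate the rudimentary carpels. The part of stamen RNA in these results was not tested.

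Between the rudimentary carpels, 15 loci were called higher in M-carpel and 7 higher in m-carpel, 30.1% of 73 against 14.7% of all loci (9.95% and 4.80%). SWEET genes accounted for 6 of the first and 3 of the second, cell wall invertases for 3 and 1. Sucrose transporters gave 2 loci, LITCHI011600 and LITCHI011601, higher in m-carpel. The part of stamen RNA in the loci higher in M-carpel was not tested.

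Between stamens, 16 loci were called higher in F-stamen and 19 higher in M-stamen (47.9% against 18.7% of all loci, of which 10.6% and 8.10%). Against m-stamen, 11 were higher in F-stamen and 31 higher in m-stamen (57.5% against 22.9%, of which 12.9% and 10%). M-stamen had 5 loci above and 15 below m-stamen (27.4% against 13.1%, of which 5.84% and 7.30%). The splits depended on the scaling. With scaling by total counts they were 12 to 20 for F-stamen against m-stamen and 9 to 14 for M-stamen against m-stamen, and with limma on log2(FPKM + 0.1) they were 12 to 19 and 9 to 14. The median log2 difference of F-stamen from m-stamen was −0.79 over the 73 loci and 0.10 over all loci. Hexose transporters gave 5 loci higher in F-stamen than in M-stamen and 5 higher in m-stamen than in M-stamen, with 1 the other way in each. SWEET genes gave 7 of 14 loci lower in F-stamen than in M-stamen and 7 lower than in m-stamen. The pollen and anther marker sum was 3423, 2716 and 1604 FPKM in m-, F- and M-stamens, an order that SUC2, STP8 (LITCHI028504) and STP10 (LITCHI023462) shared. Not all 15 marker loci had it. The pollen-specific protein C13 (LITCHI010442) was at 180, 165 and 312 FPKM, and a type III polyketide synthase B (LITCHI001958) at 26.5, 25.6 and 35.4. STP8 (LITCHI025064) and SWEET4 (LITCHI020515) were instead highest in F-stamen and M-stamen. The part of pollen and anther RNA in these differences was not tested.

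**Figure D4:**
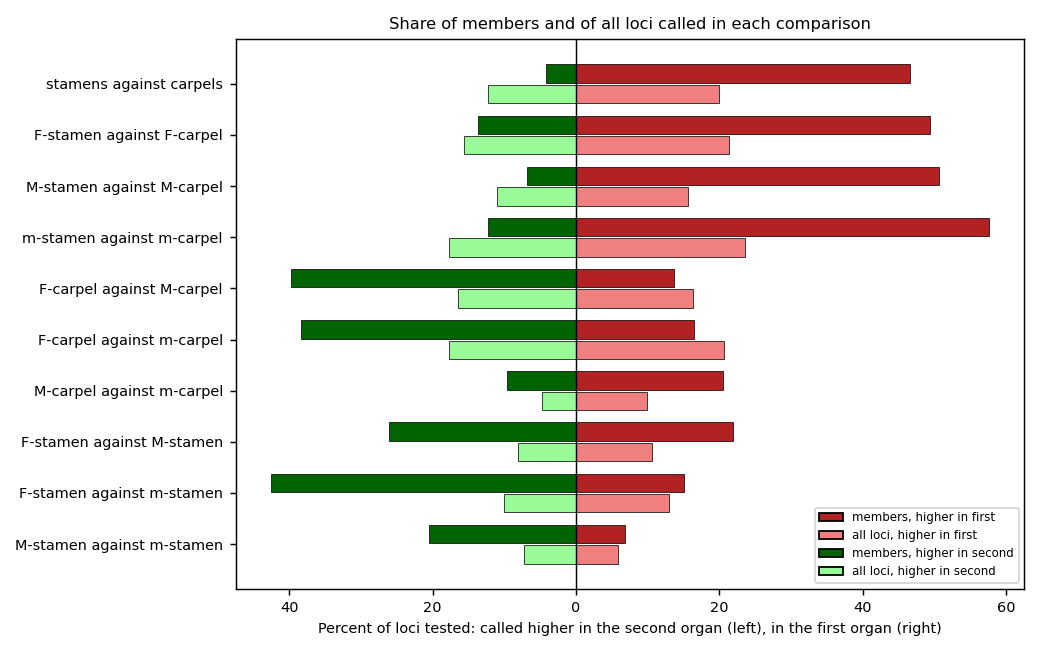
Percentage of the 73 tested sugar loci and of all 24666 loci called in each comparison, higher in the first organ to the right and in the second to the left. The sugar loci exceed the background in all 10 comparisons, from 27.4% against 13.1% between M- and m-stamens to 69.9% against 41.3% within m flowers.

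The 15 pairs of organs were compared to find loci that stood above every other organ. At least 1 pair was called for 69 of the 73 loci (94.5%, against 76.5% of all loci). In m-stamen, 11 loci (15.1%, against 1.89% of all loci) were called above each of the other 5 organs, namely CWINV1 (LITCHI030803), SUC1 (LITCHI001862 and LITCHI001857), SWEET5 (LITCHI022363), SWEET3 (LITCHI009511), STP8 (LITCHI028504 and LITCHI014761), STP10 (LITCHI023462 and LITCHI031367), PLT4 (LITCHI029239) and PLT5 (LITCHI016755). With scaling by total counts this number was 5, kept by LITCHI001857, LITCHI009511, LITCHI014761, LITCHI028504 and LITCHI030803, against 0.572% of all loci. F-stamen had 4 (5.48% against 1.26%), namely SWEET14 (LITCHI026368), SWEET15 (LITCHI004599), STP8 (LITCHI025064) and CINV2 (LITCHI026853). Of these, CINV2 (LITCHI026853) had 205 counts in F-stamen (mean 0.856 FPKM) and none in the other organs. It could pass the filter on low counts only through F-stamen, so its call was not independent of that filter. How many of all loci were of this kind was not counted. F-carpel had 3 (4.11% against 7.30%), the sucrose synthases LITCHI008066, LITCHI014453 and LITCHI022995. In m-carpel there were 3 (4.11% against 1.22%), SWEET2a (LITCHI028925), SWEET17 (LITCHI004233) and CWINV6 (LITCHI016578), of which CWINV6 was lost with scaling by total counts (2 against 0.989%). M-carpel had 1 (1.37% against 0.868%), CWINV1 (LITCHI030113), and M-stamen had 0 (0.00% against 0.373%), or 1, SWEET4 (LITCHI020515), with scaling by total counts.

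A test of the change of the organ difference between flower types gave 42 of 73 loci for F flowers against the mean of M and m flowers (32.6% of all loci), 23 of them with a larger and 19 with a smaller difference in F flowers. Between M and m flowers it gave 32 loci (17.7% of all loci), 9 larger and 23 smaller in M flowers. SWEET15 (LITCHI004599) gave the largest gain of the stamen over the carpel in F flowers, by 5.39, and SWEET3 (LITCHI009513) the largest loss, by −6.64, on the log2 scale among the named genes.

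**Figure D5:**
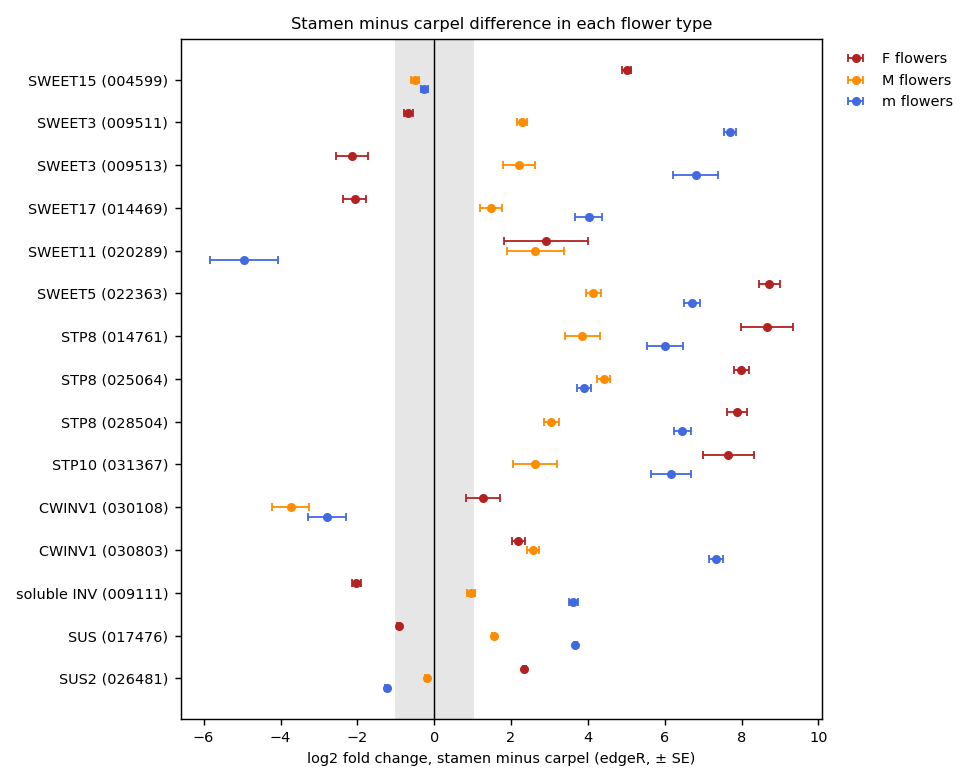
Log2 difference of stamen minus carpel in F, M and m flowers, with SE, for the 15 sugar genes, among those chosen by the naming rule, whose difference changed by at least 3 between flower types; the grey band spans −1 to 1. SWEET15 (LITCHI004599) stands at 5.01 in F flowers against −0.51 and −0.25 in M and m flowers, and sucrose synthase LITCHI017476 at −0.93 against 1.55 and 3.67.

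Other genes of sugar metabolism were counted for reference, as 159 loci chosen by their annotation (sucrose-phosphate synthase, fructokinase, starch and trehalose-phosphate synthases, inositol transporters and others), of which 131 were tested. Of these, 39 were called higher in stamens and 14 higher in carpels over the 3 flower types, 40.5% against 32.2% of all loci. Sucrose-phosphate synthases, which make sucrose, gave 5 of 7 tested loci higher in stamens and none lower. Galactinol synthases, of the raffinose pathway, gave 6 of 9 and none lower. Inositol transporters gave 3 of 8 and none lower, and the annotations of amylases, which degrade starch, gave 3 higher and 5 lower of 25.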

How the data were processed

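RNA of 18 organ samples was made into NEBNext Ultra libraries and sequenced paired-end. The authors trimmed reads, removed ribosomal RNA reads, mapped them with HISAT2 (2.0.4 in the submitters' processing notes) and assembled models with StringTie. The deposited table gives counts per gene model, FPKM from uniquely mapped reads by the authors' use of Cufflinks, annotations, and the authors' own DESeq2 fold changes and p-values between organs, which were not used. The genome build, the counting program and the strand setting were not given in the sources used here.

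Counts and FPKM were summed over the models of a locus (37401 models, 34024 loci). Counts were tested with edgeR 4.0.16 (R 4.3.3): TMM scaling, filterByExpr by organ, 1 model with 6 organs and no covariate, quasi-likelihood F-tests, Benjamini-Hochberg adjustment over 24666 loci, calls at an adjusted p below 0.01 with a log2 fold change of 1 or more in size. An SE is the log2 fold change divided by the square root of F. Floors of 3 counts and their folds cover counting error only. FPKM were compared as levels without a test. Alternatives used DESeq2 1.42.0, limma 3.58.1 on log2(FPKM + 1) and log2(FPKM + 0.1), other scalings and filters, a replicate block and leaving out each library.

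Loci, lists and tests were chosen with earlier results of these data known. Genes were named as the 3 of each class with the highest mean FPKM in an organ, in each comparison the 2 called genes that rose most and the 2 that fell most, among those of at least 1 FPKM, and loci called above each of the other 5 organs.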

Additional observations from a re-analysis of the deposited data

Results flagged for a closer look

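The stamen minus carpel difference (log2) changed with the flower type by at least 3 in size, by the interaction term of the edgeR model, in 14 named genes for F flowers against the mean of M and m flowers. It was larger in F flowers for SWEET15 LITCHI004599 (5.39), CWINV1 LITCHI030108 (4.53), SWEET11 LITCHI020289 (4.07), STP8 LITCHI025064 (3.84), STP8 LITCHI014761 (3.73), SWEET5 LITCHI022363 (3.30), STP10 LITCHI031367 (3.26), STP8 LITCHI028504 (3.12) and sucrose synthase 2 LITCHI026481 (3.06). It was smaller in F flowers for SWEET3 LITCHI009513 (−6.64), SWEET3 LITCHI009511 (−5.66), SWEET17 LITCHI014469 (−4.82), soluble invertase LITCHI009111 (−4.32) and sucrose synthase LITCHI017476 (−3.54). The mean of M and m flowers can hide a split between them. For SWEET11 the difference was 2.91 in F, 2.63 in M and −4.95 in m flowers. M flowers lay furthest from F for STP8 LITCHI028504 (7.88, 3.05 and 6.46 in F, M and m flowers). The same held for SWEET5 (8.72, 4.14 and 6.70) and STP10 LITCHI031367 (7.66, 2.62 and 6.17). The part of stamen RNA in M-carpel was not tested.

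Between M and m flowers the difference was larger in M flowers for SWEET11 LITCHI020289 (7.58), and smaller for SWEET3 LITCHI009511 (−5.41), CWINV1 LITCHI030803 (−4.76), SWEET3 LITCHI009513 (−4.61), STP10 LITCHI031367 (−3.55) and STP8 LITCHI028504 (−3.41). SWEET11 rests on low levels, at most 4.31 FPKM in a library. The sizes for STP8 LITCHI014761, STP10 LITCHI031367 and SWEET5 LITCHI022363 rest on F-carpel means of 0.0103, 0.0111 and 0.110 FPKM. Those for SWEET3 LITCHI009513 and CWINV1 LITCHI030108 rest on low means too, 0.0253 FPKM in m-carpel and 0.226 in m-stamen. These sizes are therefore imprecise. In all, 61 changes of any size were called among 100 tests of named genes, and 20 of these were at least 3 in size.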

How the results depend on the processing

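Among the 311 calls of named genes, none reversed in sign under the alternatives run. Counts of loci were compared by size only, so a reversal was not scored for them. Of the 311, 62 were no longer called with limma on log2(FPKM + 1), and scaling by total counts was run for the counts of loci only. Without a minimum fold change, 64 loci passed for stamens against carpels, 36 for M-carpel against m-carpel, 54 for F-stamen against M-stamen and 39 for M-stamen against m-stamen, while 68%, 37%, 42.6% and 35.8% of all loci passed. With limma on log2(FPKM + 1), 27 loci were called for F-stamen against m-stamen. With log2(FPKM + 0.1) the split of that comparison was 12 higher to 19 lower, and with scaling by total counts it was 12 to 20, against 11 to 31 with TMM. For M-stamen against m-stamen both alternatives gave 9 to 14, against 5 to 15. Loci above the other 5 organs in m-stamen numbered 5 with scaling by total counts. Leaving out 1 library gave 36 to 39 loci for stamens against carpels, 45 to 47 within F, 40 to 42 within M and 48 to 53 within m flowers, 38 to 41 for F-carpel against M-carpel, 32 to 41 for F-carpel against m-carpel, 19 to 23 for M-carpel against m-carpel, 34 to 35 for F-stamen against M-stamen, 38 to 43 for F-stamen against m-stamen and 19 to 21 for M-stamen against m-stamen. Where one of these values moved, the cause was not tested. Same-numbered libraries did not deviate together (correlations of −0.0369 to 0.0611 over 45 pairs). A weak effect of shared origin could also give such values, so whether the numbers pair samples is not settled. The replicate block gave 37 loci for stamens against carpels and 50 within m flowers. Genes near the floor of 3 counts carry little precision.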
